A study of Mus musculus with 25 samples.

Results

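The comparison described here sets the liver of C57/B6 mice at embryonic day 17.5 (E17.5) against the liver at E15.5 and E16.5, across all genes. It used 6 of the 25 arrays of a developmental series: 2 arrays of E17.5 against 2 of E15.5 and 2 of E16.5, taken by their stage labels. Livers were pooled before RNA was extracted, so that each stage is 1 pool, of 6 livers at E15.5, 3 at E16.5 and 3 at E17.5. The labels name no treatment, and the animals came from random matings within the strain, with noon of the day after plug discovery counted as day 0.5. The 2 arrays of a stage are technical repeats. Standard errors and p-values below therefore measure the spread between arrays of 1 RNA pool and not between livers or litters. The exception is a fit on pool means, described where it is given.

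Before birth the liver is both a blood-forming organ and an immature metabolic one. Towards the end of gestation hepatoblasts become hepatocytes, which start to make plasma proteins, glucose, urea, bile acids and drug-metabolising enzymes, while blood formation begins to move to the bone marrow. C/EBP and HNF4 factors drive many hepatocyte genes, and the rise of fetal glucocorticoids before birth is a known signal for this maturation.

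Expression was read as hybridisation intensity and is given as log2 intensity, so that a difference of 1 is a 2-fold change. A gene was called at a limma adjusted p (Benjamini-Hochberg) under 0.05 and a difference of at least 1 log2 unit, and only called genes are said to have risen or fallen. Differences carry the standard error of the fit. On the 6 arrays the median intensity lay between 44.3 and 45.4 and repeat arrays correlated at 0.995 to 0.996 across genes, and at each of the 3 stages replicate 1 had a higher mean intensity than replicate 2. The hepatocyte markers Alb (13.70 to 14.17), Afp (13.06 to 13.42), Ttr (13.20 to 13.56) and Apoa1 (13.08 to 13.74) were bright on every array. So were the red cell genes Slc4a1 (12.01 to 12.52) and Alas2 (11.72 to 12.08), while the probe set for Hba-a1 was dim throughout (5.57 to 5.72). In whole liver, fewer cells of a type and less RNA per cell cannot be told apart.

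Of 18193 genes, 193 were higher at E17.5 than the mean of E15.5 and E16.5 (1.06% of genes) and 16 were lower (0.0879%), 209 in all (1.15%). The rises included 79 genes on lists of hepatocyte and metabolic function, and the falls included 2 embryonic globins and 4 genes of DNA replication. At an adjusted p under 0.05 without the 2-fold limit, 759 genes were higher and 279 lower (5.71% of genes in all). By that rule 1173 genes differed from E15.5 (6.45%), 431 from E16.5 (2.37%) and 102 between E15.5 and E16.5 (0.561%). Among the 193 called rises, 25 started from a mean under 6 at the earlier stages, beside 8438 of all 18193 genes. That level is near the median of the arrays, where a fold change is compressed. Without replicate 2 of E17.5, 9 genes were called lower in place of 16, and without replicate 1 of E17.5, 24. Leaving out 1 array unbalances the replicate numbers, and replicate 1 had the higher mean intensity at each of the 3 stages. How far this moved such counts was not tested. When the repeat arrays were averaged and the 3 pools treated as samples, no gene passed limma's adjusted p (0 genes, lowest 0.327), with 1901 of 18193 genes at an unadjusted p under 0.05, 178 of the 209 among them. That fit has 1 residual degree of freedom, the difference between E15.5 and E16.5. Its p-values thus measure that stage difference and not a spread between pools, so a failure to pass decides nothing. The 209 were picked by the same contrast, so their share there supports nothing either.

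E15.5 and E16.5 agreed in direction for 207 of the 209 called genes, with E17.5 higher than both or lower than both. This held for 192 of the 193 that rose and 15 of the 16 that fell, beside 71.1% of all genes. Both differences share the E17.5 arrays, and the call itself used both earlier stages, so this share describes the genes and supports nothing further. The exceptions were Eif2s3y, higher only against E15.5, and Prg2, lower only against E16.5. Agreement was by sign alone, whatever the size: Prl8a2 counts among the 15, with -3.64 from E15.5 and -0.06 from E16.5. No gene was called higher against one earlier stage and lower against the other. Against E15.5 alone 319 genes were called (1.75%), 279 higher (1.53%) and 40 lower (0.22%). Against E16.5 alone 136 were called (0.748%), 129 higher (0.709%) and 7 lower (0.0385%), and this count was 53 without replicate 2 of E16.5 and 60 without replicate 1 of E17.5.

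Of the 209 genes, 116 were called against each earlier stage taken alone, 89 only against E15.5 and 4 only against E16.5. The level at E16.5 lay between those of E15.5 and E17.5 in 186 of them (41% of all genes had such an order). In the genes that rose the median difference was 1.55 from E15.5 and 1.13 from E16.5, and E16.5 exceeded E15.5 by a median of 0.46. Between E15.5 and E16.5 themselves 43 genes were called (0.236%), 34 higher (0.187%) and 9 lower (0.0495%) at E16.5, and 32 of the 209 were among the 43. That count was 19 without replicate 2 of E15.5 and 18 without replicate 1 of E16.5. For 178 of the 209 the step from E16.5 to E17.5 was larger than that from E15.5 to E16.5, beside 9490 of all 18193 genes. The call weighs the second step more than the first, so this share partly follows from it. The 2 arrays of E17.5 lay outside the range of the 4 earlier arrays in 206 of the 209. Among all genes they lay above that range in 14.1% and below it in 12.4%. The call used these same arrays and a limit of 1 log2 unit, so the share among the 209 largely follows from the call. It describes the genes and supports nothing further.

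**Figure D1:**
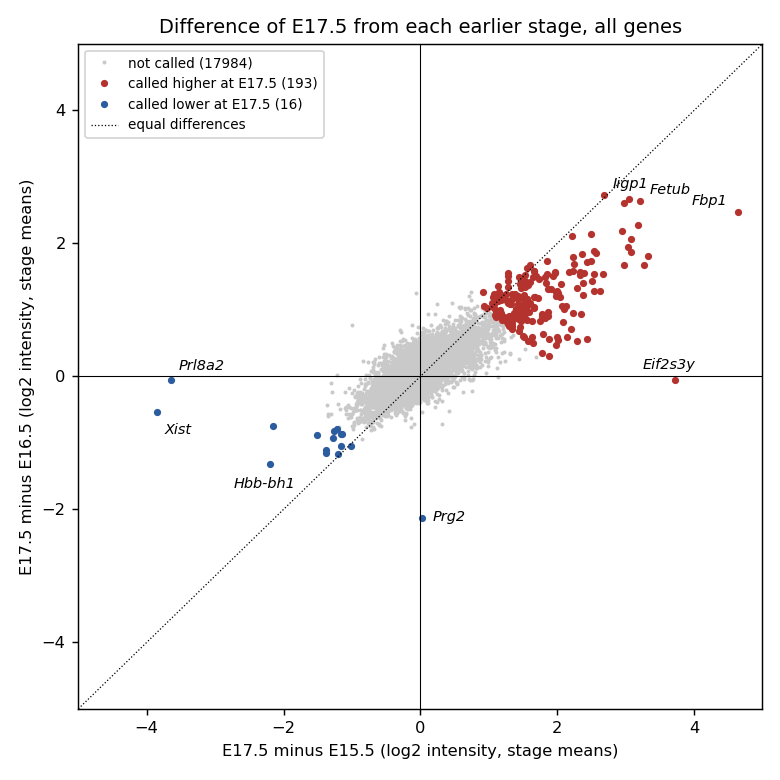
Each point is 1 of 18193 genes, with the E17.5 minus E15.5 difference of stage means on the horizontal axis and E17.5 minus E16.5 on the vertical axis, both in log2 intensity. Red points are the 193 genes called higher and blue points the 16 called lower at E17.5. All but Eif2s3y and Prg2 lie in the quadrants of equal sign, and most red points lie under the dotted line of equal differences, nearer to E16.5 than to E15.5.

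The largest rise was in Fbp1, fructose-1,6-bisphosphatase, an enzyme of glucose synthesis. Its arrays read 7.26 and 7.19 at E15.5, 9.48 and 9.32 at E16.5, and 11.97 and 11.78 at E17.5, a difference of 3.56 ± 0.27 or 11.8-fold (adjusted p = 1.40e-06). The 3 stages did not overlap and climbed in order, and the gene rose by 4.65 over E15.5 and 2.47 over E16.5. Fetub, the secreted protease inhibitor fetuin-B, followed another course: 5.10 and 5.17, then 5.77 and 5.67, then 8.48 and 8.22, a rise of 2.92 ± 0.20 or 7.58-fold (adjusted p = 6.41e-07). Most of its change lay after E16.5, with a step of 0.58 from E15.5 to E16.5 and 2.63 from E16.5 to E17.5. Fgl1, a fibrinogen-like protein secreted by hepatocytes, read 5.62, 5.52, 5.70 and 6.19 on the earlier arrays and 8.65 and 8.58 at E17.5, a rise of 2.86 ± 0.19. The earlier arrays lay close together and E17.5 stood far above them.

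Igfbp2, a carrier of insulin-like growth factors, read 5.41, 5.20, 5.84 and 5.52 before and 8.39 and 8.17 at E17.5 (2.79 ± 0.20). Rdh7, a retinol dehydrogenase of the microsomes, read 6.90 and 6.72, 7.75 and 7.68, and 10.07 and 9.90 (2.73 ± 0.22). Iigp1, an interferon-inducible GTPase, read 5.28, 5.66, 5.36 and 5.48 before and 8.32 and 7.97 at E17.5 (2.70 ± 0.19). The E16.5 arrays of Rdh7 already lay above those of E15.5, while the earlier arrays of Igfbp2 lay close together and those of Iigp1 overlapped between stages. Slc10a1, the main bile acid uptake carrier of hepatocytes, read 6.79 and 7.24, 8.01 and 8.03, and 10.13 and 10.06 (2.57 ± 0.20). Adh1, alcohol dehydrogenase, read 8.37 and 8.30, 9.97 and 9.74, and 11.79 and 11.54 (2.57 ± 0.19). For both, no array of one stage overlapped another stage.

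**Figure D2:**
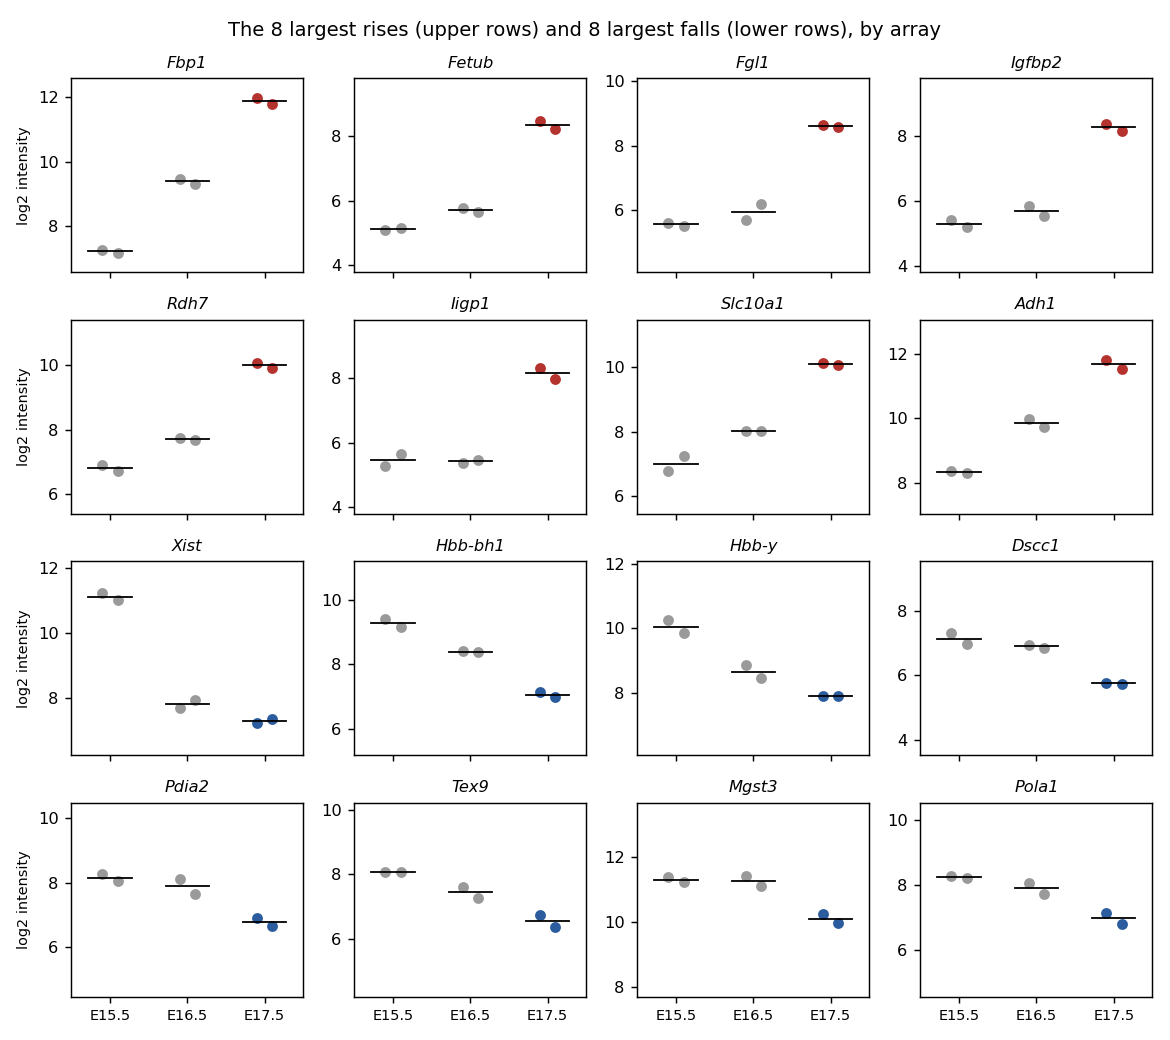
The 8 largest rises and the 8 largest falls among called genes whose E17.5 arrays lay outside the 4 earlier ones. Points are single arrays in log2 intensity, black lines are stage means, and every panel spans the same range. The stage means of Fbp1, Rdh7, Slc10a1 and Adh1 are spaced over both steps, those of Fetub, Fgl1, Igfbp2 and Iigp1 mostly over the second, and Xist falls mostly between E15.5 and E16.5.

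Of 31 measured plasma proteins and apolipoproteins 7 rose and none fell, with a median difference of 0.55, beside -0.01 over all genes. The count was 4 when probe sets shared by transcripts were left out. Pon1, the paraoxonase carried on high-density lipoprotein, read 6.31 and 5.81, 6.84 and 6.58, and 8.72 and 8.46 (2.21 ± 0.19, 4.61-fold, adjusted p = 4.45e-06). Its E17.5 arrays lay clear of all others. Itih4, a plasma protease inhibitor chain, rose by 1.73 ± 0.19, Ces1c, a secreted carboxylesterase, by 1.57 ± 0.19, and Apoc4, an apolipoprotein, by 1.34 ± 0.19. The 3 brightest uncalled members were already near the top of the scale: Alb differed by 0.12 ± 0.19, Ttr, the thyroxine carrier, by 0.18 ± 0.16, and Apoa1 by 0.37 ± 0.18.

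Clotting factors and their inhibitors had 12 of 23 members higher and none lower, with a median just over 1 log2 unit. The count was 5 without replicate 1 of E17.5 and 14 without replicate 2 of E17.5. Hrg, histidine-rich glycoprotein, read 6.97 and 7.89, 6.75 and 7.56, and 8.77 and 8.67 (1.42 ± 0.29), and its call was lost without either E17.5 array. Its repeat arrays differed more than those of the other members named here. F11, coagulation factor XI, rose by 1.36 ± 0.20, Proz, protein Z, by 1.30 ± 0.20, Fgb, the fibrinogen beta chain, by 1.28 ± 0.17, and Kng1, kininogen, by 1.22 ± 0.16. Proz gave 0.95 with its probe sets averaged and was not called there. The other fibrinogen chains were not called, with Fga at 0.89 ± 0.20 and Fgg at 0.77 ± 0.22. Serpinc1, antithrombin, differed by 0.65 ± 0.18.

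Complement and acute phase proteins had 9 of 26 members higher and none lower (median 0.65). Mbl2, mannose-binding lectin, read 5.33 and 5.34, 5.42 and 5.46, and 7.61 and 7.48 (2.16 ± 0.21, 4.46-fold). It was flat and dim at both earlier stages and stood apart only at E17.5. Hp, haptoglobin, read 8.48 and 8.27, 9.70 and 9.31, and 11.15 and 10.92 (2.10 ± 0.22), and its 3 stages did not overlap. Saa3, a serum amyloid A whose probes may be shared with its close relatives, rose by 1.87 ± 0.09. Apcs, serum amyloid P, rose by 1.81 ± 0.15, and Lbp, the lipopolysaccharide-binding protein, by 1.53 ± 0.21. Lbp gave 0.96 with its probe sets averaged and was not called there. Complement factors Cfb (0.96 ± 0.15), Cfi (0.61 ± 0.18) and Hc (0.48 ± 0.19) were not called.

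Of 29 genes of gluconeogenesis and glycogen 7 rose and none fell (median 0.64). After Fbp1 the largest was Ppp1r3b, the glycogen-targeting subunit of protein phosphatase 1 in liver, at 6.23 and 6.32, 7.30 and 7.19, and 8.77 and 8.53 (1.89 ± 0.15). Gbe1, the glycogen branching enzyme, rose by 1.60 ± 0.20, Pcx, pyruvate carboxylase, by 1.49 ± 0.20, and Igfbp1, an insulin-regulated binding protein of the same list, by 1.23 ± 0.19. Gbe1 gave 0.94 with an offset of 50 added to intensities and was not called there. Neither Pck1 nor G6pc, which act early and last in the pathway, was among them. Pck1, cytosolic PEP carboxykinase, read 4.88, 4.89, 4.88 and 4.97 before and 4.90 and 5.14 at E17.5 (0.12 ± 0.14), and G6pc, the glucose-6-phosphatase catalytic subunit, read 5.43, 5.37, 5.22 and 5.58 before and 5.56 and 5.88 at E17.5 (0.32 ± 0.21). For both genes the E17.5 arrays overlapped the earlier ones. Pck1 stood at 7.04 on the 1 array of E18.5 and 10.84 at the day of birth, and G6pc at 9.35 and 11.86. Among 15 glycolytic isozymes of fetal and blood cells none was called (median 0.09), with Ldha, a lactate dehydrogenase, at 0.73 ± 0.18.

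In the urea cycle and amino acid breakdown 8 of 44 genes rose and none fell (median 0.46). Cps1, which makes carbamoyl phosphate for the urea cycle, read 9.00 and 8.69, 9.97 and 9.71, and 11.52 and 11.24 (2.04 ± 0.19, 4.10-fold, adjusted p = 7.71e-06). Arg1, the arginase that releases urea, read 8.37 and 8.36, 9.68 and 9.34, and 10.86 and 10.61 (1.80 ± 0.17). Neither gene overlapped between stages. Fah, the last enzyme of tyrosine breakdown, rose by 1.62 ± 0.18, and Hpd, an earlier one, by 1.43 ± 0.24. Tat, which opens the same pathway, read 6.52, 6.40, 6.63 and 6.61 before and 6.65 and 6.64 at E17.5 (0.11 ± 0.17), and 9.05 at E18.5 and 11.78 at the day of birth. Dpys, of pyrimidine breakdown, rose by 1.57 ± 0.24, but the probe set used when sets shared by transcripts were left out gave -0.069. Bhmt, which remethylates homocysteine, differed by 0.40 ± 0.20.

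Of 45 drug-metabolism genes 13 rose and none fell (median 0.49). After Adh1 the largest was Aox3, an aldehyde oxidase, at 5.02, 5.11, 5.46 and 5.38 before and 7.75 and 7.37 at E17.5 (2.32 ± 0.16). Cyp2d26 rose by 2.07 ± 0.16, Cyp2c70 by 1.97 ± 0.18 and Cyp2e1 by 1.64 ± 0.20. Cyp2e1 was far from its later level: 7.40 at E17.5, 12.15 on the 1 array of E18.5 and 13.05 in the adult. Of these cytochromes P450, Cyp2c70 makes muricholic acids in mice and Cyp2e1 oxidises ethanol. The glutathione transferases Gstp1 (0.28 ± 0.16) and Gstm1 (0.60 ± 0.17) were not called.

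Among 31 genes of bile acid synthesis and transport 6 rose and none fell (median 0.42). Beside Slc10a1, Cyp39a1, an oxysterol hydroxylase, read 5.25 and 5.10, 5.98 and 5.49, and 7.39 and 7.45 (1.97 ± 0.21). Akr1c6, a hydroxysteroid dehydrogenase, rose by 1.92 ± 0.20. Cyp8b1, the sterol 12-hydroxylase of cholic acid synthesis, rose by 1.32 ± 0.21, and Slco1b2, an organic anion carrier, by 1.29 ± 0.21. Slco1b2 was dim at 4.79 and 4.85 at E15.5 and reached 6.25 and 6.07 at E17.5, and gave 0.45 with all its probe sets averaged. With an offset of 50 added to intensities 3 of the list were called, and Cyp8b1 gave 0.98 and was not. Abcb4, the phospholipid exporter of bile, differed by -0.06 ± 0.15.

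Few genes of fat metabolism were called. Of 32 genes of fatty acid oxidation and ketogenesis only Acaa1b, a peroxisomal thiolase, rose (1.36 ± 0.19), although 28 of the 32 differences were above 0 and the median was 0.50. The count was 4 without replicate 1 of E15.5, 3 without replicate 1 of E16.5 and 5 without replicate 2 of E17.5, and 0 with an offset of 50 added to intensities (Acaa1b 0.997, just under the limit). Fabp1, the liver fatty acid binding protein, stood just under the limit (0.97 ± 0.19), and Hadh differed by 0.52 ± 0.22. Of 42 genes of fat and cholesterol synthesis 2 rose: Lpin1, a phosphatidate phosphatase, by 1.60 ± 0.19 and Elovl6, a fatty acid elongase, by 1.02 ± 0.15. Elovl6 fell under the limit of 1 without replicate 2 of E15.5, replicate 2 of E16.5 or replicate 1 of E17.5, which left 1 gene. Hmgcs1, of cholesterol synthesis, differed by 0.48 ± 0.20.

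Of 41 liver transcription factors and nuclear receptors 3 rose and none fell (median 0.23). Cebpa, a C/EBP factor needed for hepatic glucose synthesis, read 8.13 and 8.02, 8.37 and 8.09, and 9.58 and 9.34 (1.31 ± 0.16, 2.48-fold, adjusted p = 0.000137). The earlier stages overlapped and E17.5 stood apart. Atf5, another bZIP factor, rose by 1.40 ± 0.14. Cebpd rose by 1.08 ± 0.18, but was not called without replicate 1 of E17.5 (0.84) and gave 0.48 with its probe sets averaged. Hnf4a differed by 0.53 ± 0.17 and was not called, but the probe set taken when shared sets were left out gave 1.04 and was. Xbp1 (0.75 ± 0.27) and Creb3l3 (0.23 ± 0.20), both linked to secretion and fasting, were not called.

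Promoters are shown for 3 risen genes that hold a match to a C/EBP or HNF4 motif, picked after the matches were seen, and for Cebpa, itself a C/EBP factor, where only a TATA match was found. Sequences are 250 bases before an annotated start, from RefSeq on GRCm38.p6, and 159 of the 193 risen genes and 14452 of all genes had one. Where a gene has several starts, any start counts, and the start with most matches is printed. Both strands were searched for 9 motifs. Only C/EBP (TTGCNNAA), HNF4 (CAAAGTCCA or CAAAGGTCA), HNF1, FOXA and the TATA box (spelled TATAAA) were marked in capitals and used to choose the start. HNF1 and FOXA gave no match here, and matches to other searched motifs, such as CCAAT, stand unmarked. In Cp the TATA matches of both strands overlap. The promoter of Cp lies at chr3:19956999-19957248 on the plus strand, Pon1 at chr6:5193947-5194196 on the minus strand, Cyp2c70 at chr19:40187287-40187536 on the minus strand and Cebpa at chr7:35119043-35119292 on the plus strand.
Cp: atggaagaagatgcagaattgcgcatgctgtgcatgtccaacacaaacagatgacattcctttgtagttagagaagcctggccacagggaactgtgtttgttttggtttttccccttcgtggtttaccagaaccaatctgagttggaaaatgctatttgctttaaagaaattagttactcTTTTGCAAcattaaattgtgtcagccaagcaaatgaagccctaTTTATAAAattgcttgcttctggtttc
Pon1: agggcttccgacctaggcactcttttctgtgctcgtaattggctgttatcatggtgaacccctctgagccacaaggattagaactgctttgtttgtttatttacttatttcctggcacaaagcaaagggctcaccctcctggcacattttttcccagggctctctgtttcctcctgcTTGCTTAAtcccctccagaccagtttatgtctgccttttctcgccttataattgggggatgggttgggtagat
Cyp2c70: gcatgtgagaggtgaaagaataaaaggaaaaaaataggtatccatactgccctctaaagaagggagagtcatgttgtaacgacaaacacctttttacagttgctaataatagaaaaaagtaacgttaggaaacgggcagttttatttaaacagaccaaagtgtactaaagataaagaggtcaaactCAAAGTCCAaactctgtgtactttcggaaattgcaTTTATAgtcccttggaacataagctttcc
Cebpa: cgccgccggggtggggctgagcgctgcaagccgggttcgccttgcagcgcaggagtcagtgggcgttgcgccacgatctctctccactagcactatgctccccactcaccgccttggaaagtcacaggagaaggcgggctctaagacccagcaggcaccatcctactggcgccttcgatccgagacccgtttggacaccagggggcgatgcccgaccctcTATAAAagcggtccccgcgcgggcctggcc
The C/EBP match lay 70 to 63 bases before the start of Cp and 73 to 66 before that of Pon1, and the HNF4 match 64 to 56 before that of Cyp2c70. A C/EBP match was present in 34 of the 159 risen genes (21.4%) and in 9.65% of all genes. HNF4 words were present in 5.03% against 0.906%, the longer HNF1 motif in 2.52% against 0.387%, FOXA (TGTTTGC) in 7.55% against 4.37%, and TATA in 22.0% against 10.5%. TATA was also found in 3 of the 11 fallen genes with a promoter (27.3%), and in the granulocyte list C/EBP was found in 28.6% of 28 promoters and TATA in 25.0%. The shares were closer for the word CCAAT, at 44.0% against 39.4%, and for the GATA factors, searched as AGATAAG, at 3.14% against 2.64%. The longer motif of the glucocorticoid receptor, given by name alone, was present in 0.629% against 0.353%. These are matches of letters and were not tested.

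Of 24 genes of iron, heme and metal handling 5 rose and none fell, with a median of 0.12 that changed sign when shared probe sets were left out (-0.06). Cp, the copper-carrying ferroxidase ceruloplasmin, read 8.16 and 7.98, 9.31 and 9.02, and 11.26 and 10.96 (2.49 ± 0.23, 5.63-fold). Hamp, the iron hormone hepcidin, read 6.30 and 6.43, 7.77 and 7.51, and 8.73 and 8.47 (1.60 ± 0.19). For Hamp the first step was larger than the second, unlike Cp. Slc39a14, a zinc and iron importer, rose by 1.44 ± 0.22 (0.60 and not called with its probe sets averaged), and Steap4, a metalloreductase, by 1.08 ± 0.23, a call that was lost without either E17.5 array. The list had 3 called with probe sets averaged. Fth1, the ferritin heavy chain, differed by -0.17 ± 0.13 and Mt1, a metallothionein, had an adjusted p of 0.999.

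Of 28 genes that carry, activate or answer glucocorticoids 7 rose and none fell (median 0.25). Hsd11b1, which regenerates active glucocorticoid inside cells, read 7.67 and 7.47, 9.01 and 8.80, and 10.28 and 10.10 (1.95 ± 0.20). Both steps were called and no stages overlapped. Errfi1, an inhibitor of the EGF receptor, rose by 1.77 ± 0.23 and Klf9, a glucocorticoid-responsive factor, by 1.63 ± 0.21. Klf9 gave 0.80 with its probe sets averaged, a setting that left 4 of the list. Serpina6, the plasma carrier of glucocorticoids, read 12.52 and 12.28, 12.30 and 12.07, and 11.68 and 11.51 (-0.70 ± 0.15, under the limit of 1), and 9.88 at E18.5. In the growth hormone, insulin and thyroid list 3 of 24 rose, all of them IGF-binding proteins: Igfbp2, Igfbp1 and Igfbp4 (1.15 ± 0.23, not called without replicate 1 of E17.5). With shared probe sets left out 1 gene of the list was called. Ghr, the growth hormone receptor, differed by 0.55 ± 0.18 and Igf1 by 0.22 ± 0.14. Of 31 fetal and imprinted growth genes none was called: Afp differed by 0.16 ± 0.17, Igf2 by 0.36 ± 0.16 and Grb10 by 0.72 ± 0.21.

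Across the 14 lists of hepatocyte and metabolic function 79 of 419 measured genes rose (18.9%) and none fell. In the pericentral and periportal list 4 of 27 rose. Hsd17b13, a lipid droplet enzyme, read 7.20 and 6.88, 8.56 and 8.12, and 10.25 and 9.79 (2.33 ± 0.24), and Slc13a3, a dicarboxylate carrier, rose by 2.21 ± 0.18, beside Cps1 and Cyp2e1. Glul, the pericentral glutamine synthetase, differed by 0.57 ± 0.24 and Oat by -0.63 ± 0.19. The called zonal genes thus include a periportal one, Cps1, and a pericentral one, Cyp2e1. Of 33 interferon and antigen presentation genes 2 rose, Iigp1 and Rsad2, an antiviral enzyme, at 7.49 and 7.59, 9.62 and 9.21, and 10.05 and 9.90 (1.50 ± 0.16). Most of the Rsad2 change preceded E16.5. B2m differed by 0.41 ± 0.18.

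**Figure D3:**
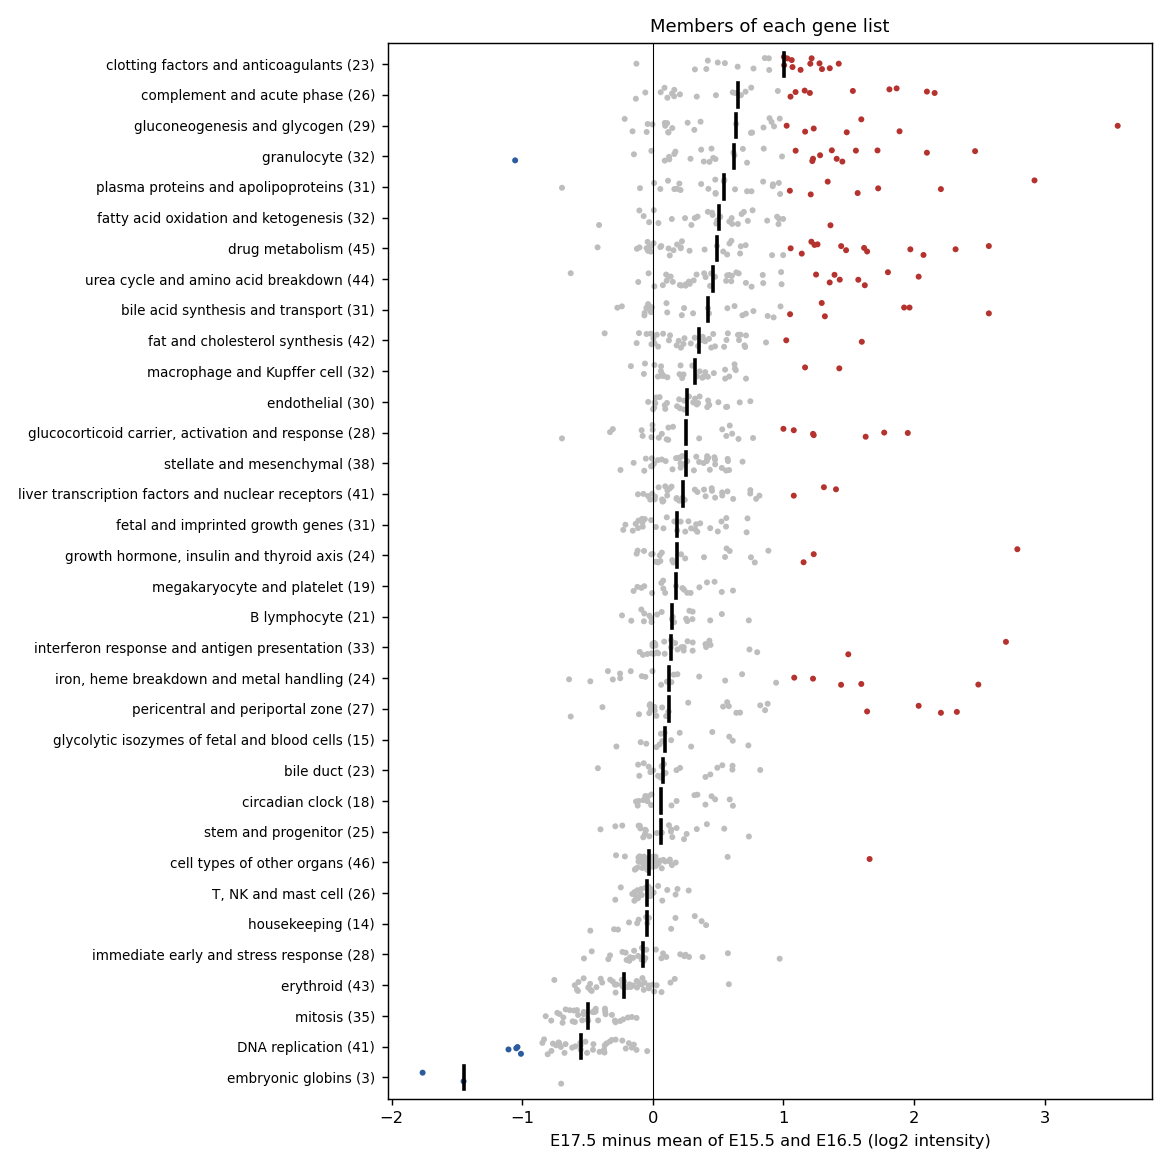
Each point is a measured member of a gene list, placed by its E17.5 minus mean of E15.5 and E16.5 difference in log2 intensity. Red is called higher, blue called lower and grey not called, black bars are list medians, and list sizes are in brackets. Clotting factors lie highest (median just over 1 log2 unit), and the embryonic globins, DNA replication and mitosis lists have the lowest medians, all below 0. Also below 0 are the medians of the erythroid (-0.22), immediate early (-0.08), housekeeping (-0.05), T, NK and mast cell (-0.05) and other organ (-0.03) lists. The sex marks list is not drawn.

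Granulocyte genes were the blood group with most rises, 11 of 32, and 1 fell (median 0.62). Chil3, a secreted chitinase-like protein, read 5.82 and 5.60, 7.33 and 7.29, and 9.15 and 8.80 (2.47 ± 0.18, 5.53-fold, adjusted p = 1.19e-06). Cd177, a neutrophil surface protein, rose by 1.72 ± 0.16, Pglyrp1, a granule protein, by 1.56 ± 0.16, Olfm4 by 1.45 ± 0.19, and Ltf, lactoferrin, by 1.37 ± 0.21. Cd177 gave 0.97 with an offset of 50 added to intensities and was not called there. The list also holds Hp and Lcn2 (1.23 ± 0.17), which hepatocytes make as well. The brightest members were not called: S100a8 differed by 0.46 ± 0.20, S100a9 by 0.69 ± 0.14 and Lyz2 by 0.63 ± 0.18. The mean over the list was 7.61 and 7.49, 8.44 and 8.26, and 8.76 and 8.63, so the larger step came before E16.5. The medians of its differences were 0.91 against E15.5 and 0.30 against E16.5. The part of granulocytes in the rises of the shared genes was not tested.

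Of 32 macrophage and Kupffer cell genes 2 rose (median 0.32). Clec4f, a lectin of Kupffer cells, read 5.66 and 5.51, 6.14 and 5.97, and 7.36 and 7.13 (1.43 ± 0.19). Vsig4, their complement receptor, read 5.12 and 5.13, 5.66 and 5.50, and 6.57 and 6.47 (1.17 ± 0.15). Both started dim and their stages did not overlap, and with an offset of 50 added to intensities neither was called (Clec4f 0.92, Vsig4 0.64), which left 0 of the list. Csf1r differed by 0.64 ± 0.13, and Cd5l, a secreted macrophage protein, by 0.20 ± 0.15.

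Red cell genes gave no called member among 43, with a median of -0.22 and 37 of 43 below 0. Here the earlier stages differed: the median was -0.48 against E15.5 and -0.05 against E16.5. Gata1, the erythroid transcription factor, read 10.53 and 10.42, 9.90 and 9.78, and 9.86 and 9.80 (-0.33 ± 0.15). Its E16.5 and E17.5 arrays were alike and both lay under E15.5. Of 3 embryonic globins 2 fell, with probes that may be shared among globins. Hbb-bh1 read 9.39 and 9.14, 8.40 and 8.36, and 7.15 and 6.97, and fell by 1.76 ± 0.19 (adjusted p = 4.57e-05). Hbb-y read 10.25 and 9.87, 8.86 and 8.46, and 7.92 and 7.90, and fell by 1.45 ± 0.14. For both the 3 stages did not overlap and lay in descending order. Both are read by probe sets shared between transcripts, and neither gene was tested when such sets were left out. Hba-x differed by -0.70 ± 0.13, by -1.31 from E15.5 and by -0.09 from E16.5. No member was called among 25 stem and progenitor, 19 megakaryocyte, 21 B lymphocyte and 26 T, NK and mast cell genes.

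All 76 measured genes of mitosis and DNA replication had a difference below 0 (median -0.52), as deposited and under each of 3 other scalings, and 4 were called. Without replicate 1 of E16.5 or replicate 2 of E17.5 it was 75 of the 76. Among all genes the median was -0.01. The 4 were DNA replication genes, of 41 on that list. Pola1, the catalytic subunit of DNA polymerase alpha, read 8.28 and 8.21, 8.06 and 7.72, and 7.13 and 6.80 (-1.11 ± 0.18, adjusted p = 0.00165). Cdc6, which loads the replicative helicase, read 9.60 and 9.21, 9.10 and 8.83, and 8.37 and 7.91 (-1.05 ± 0.18). Pole2, a subunit of polymerase epsilon, fell by 1.04 ± 0.14 and Rrm1, the large subunit of ribonucleotide reductase, by 1.01 ± 0.16. All 4 stood close to the limit. The count was 0 with an offset of 50 added to intensities and 1 with probe sets averaged (Pola1 -0.57). It was 2 without replicate 1 of E15.5, 1 without replicate 1 of E16.5 and 0 without replicate 2 of E17.5. It stayed at 4 without replicate 2 of E15.5 or of E16.5, and was 5 without replicate 1 of E17.5. Pcna, the sliding clamp, differed by -0.76 ± 0.19 and Rrm2 by -0.35 ± 0.22. None of 35 mitosis genes was called (median -0.50). Mki67 read 12.27 and 11.97, 11.62 and 11.25, and 11.77 and 11.46 (-0.16 ± 0.20), and its E17.5 arrays lay under those of E15.5 but overlapped those of E16.5. Dscc1, a clamp-loader subunit that no list held, read 7.30, 6.95, 6.94 and 6.84 before and 5.75 and 5.73 at E17.5 (-1.27 ± 0.12). Its call was lost with its probe sets averaged (-0.73) and with an offset of 50 added to intensities (-0.79).

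The promoters of Pola1 and Cdc6 are shown because each holds an E2F word (TTTCCCGC or TTTGGCGC, either strand, in capitals), the class of factor known for S-phase genes. Pola1 lies at chrX:93632156-93632405 on the minus strand and Cdc6 at chr11:98907901-98908150 on the plus strand, and both are 250 bases before the start on GRCm38.p6, from RefSeq.
Pola1: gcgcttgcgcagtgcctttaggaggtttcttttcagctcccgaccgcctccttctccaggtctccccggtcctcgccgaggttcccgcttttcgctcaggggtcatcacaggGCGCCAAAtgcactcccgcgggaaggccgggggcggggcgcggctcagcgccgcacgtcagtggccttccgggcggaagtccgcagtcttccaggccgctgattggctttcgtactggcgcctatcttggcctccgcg
Cdc6: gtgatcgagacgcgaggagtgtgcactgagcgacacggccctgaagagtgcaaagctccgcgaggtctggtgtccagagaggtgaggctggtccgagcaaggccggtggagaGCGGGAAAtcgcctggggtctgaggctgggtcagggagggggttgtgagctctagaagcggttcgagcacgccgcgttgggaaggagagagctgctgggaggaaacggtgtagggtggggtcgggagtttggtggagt
In both the match lay 138 to 131 bases before the start. An E2F word was present in 7 of 35 DNA replication genes with a promoter (20.0%) and in 3 of 11 genes that fell (27.3%). The share was 2.52% among those that rose and 2.30% among all genes. Pola1 and Cdc6 belong to both the replication list and the fallen genes, so those shares overlap. Like the earlier ones, these letter matches were not tested.

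None of 91 endothelial, stellate or bile duct genes was called, with a median of 0.21. Ehd3, of sinusoidal endothelium, differed by 0.75 ± 0.17, Reln, of stellate cells, by 0.57 ± 0.15, and Krt18 by 0.49 ± 0.13. In the bile duct list 1 gene passed without replicate 2 of E17.5. Of 46 marker genes of other organs only Hsd3b1, a steroid dehydrogenase, rose (1.66 ± 0.15). None of 14 housekeeping genes was called (median -0.05), with Actb at -0.04 ± 0.18 and Eef1a1 at -0.11 ± 0.20. None of 28 immediate early and stress genes was called, though 1 was without replicate 1 of E15.5, replicate 1 of E16.5 or replicate 2 of E17.5. None of 18 clock genes was called.

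Some calls rest on 1 earlier pool. Xist, the RNA of the inactive X, read 11.23 and 11.02 at E15.5, 7.69 and 7.94 at E16.5, and 7.20 and 7.35 at E17.5, and fell by 2.19 ± 0.16. Eif2s3y, on the Y, read 4.11 and 4.17, 8.14 and 7.70, and 8.04 and 7.70, and rose by 1.84 ± 0.26. The other measured Y genes, Uty (4.71 to 5.16 on the 6 arrays) and Kdm5d (4.54 to 5.01), were dim and not called, so the Y signal rests on Eif2s3y, which gave 0.92 and was not called with its probe sets averaged. The E15.5 pool thus carried a high Xist and low Eif2s3y signal, as did those of E14.5 (Xist 10.26, Eif2s3y 4.19) and E18.5 (10.53 and 4.59). So did the day of birth (10.25 and 4.17), day 3 (10.21 and 4.15), day 14 (10.62 and 4.25) and day 21 (10.27 and 4.15). The reverse held at E16.5, at E17.5 and in the adult (6.93 and 7.21), and the remaining stages are not classed here. The pools cannot be taken as matched for sex. How far sex contributes to other differences was not tested. After seeing the values, Prl8a2 and Prg2 were also singled out. Prl8a2, a prolactin-family gene of the pregnant uterus, read 8.67 and 8.46 at E15.5 and 4.89 to 5.04 on the other 4 arrays, and stood between 4.67 and 5.28 at every other stage of the series. Prg2, the major basic protein of eosinophils, read 7.29 and 7.22 at E16.5, against 5.03 to 5.19 on the arrays of E15.5 and E17.5.

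**Figure D4:**
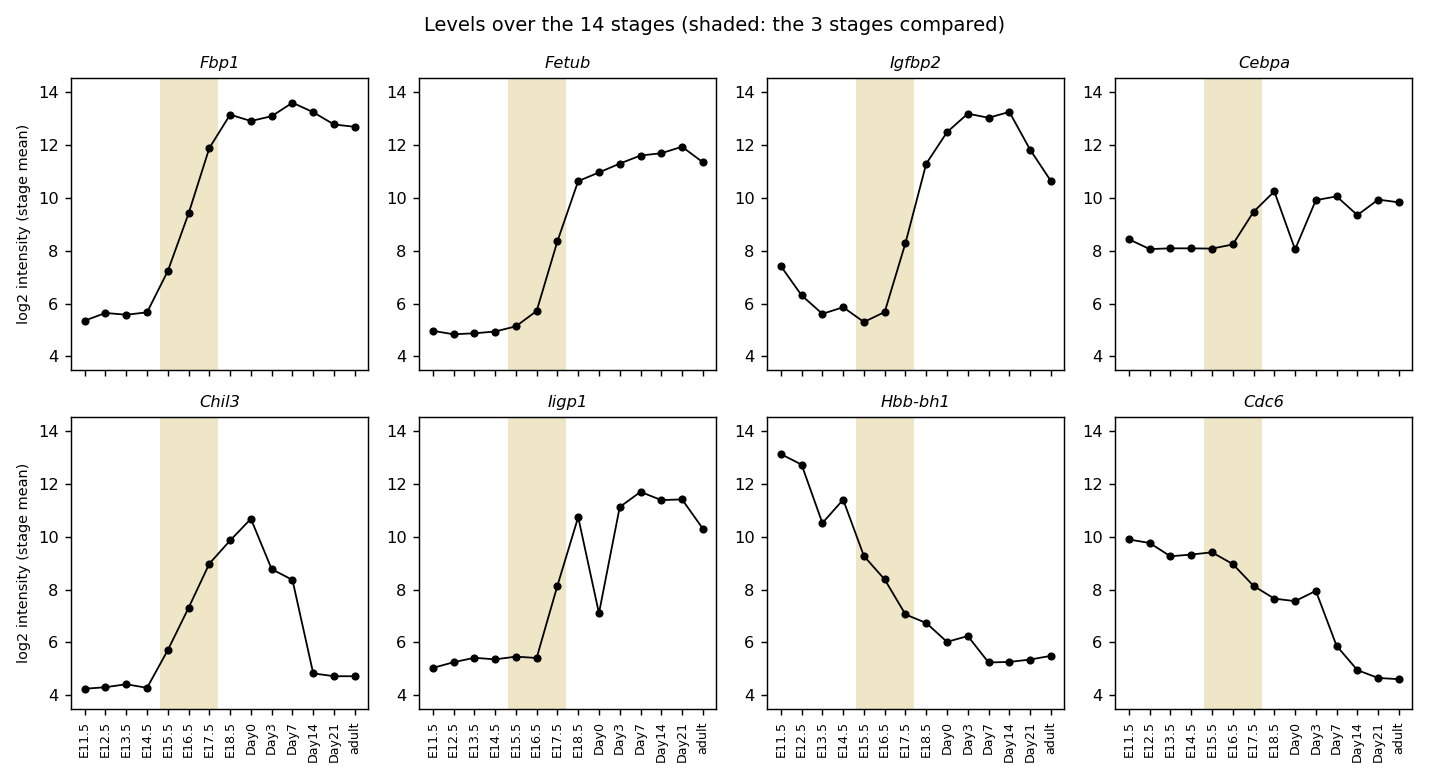
Stage means in log2 intensity over all 14 stages from E11.5 to the adult, with the 3 stages compared shaded. Fbp1, Fetub, Igfbp2 and Cebpa rise into E17.5 and are higher still at E18.5, Chil3 rises and is low again in the adult, Iigp1 is high at E18.5 and lower at birth, and Hbb-bh1 and Cdc6 decline.

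Where these changes led was read from the other stages, as a description. Of the 193 genes that rose, 11 were at their highest of the 14 stages at E17.5 (5.7%, beside 1.56% of all genes), 31 at E18.5 (16.1% beside 10.7%), 22 at the day of birth (11.4% beside 3.94%), 57 at day 7 (29.5% beside 12.9%), 36 at day 21 (18.7% beside 5.87%) and 16 in the adult (8.29% beside 8.47%). At day 14 it was 11 (5.7% beside 12.2%), a smaller share than among all genes. E18.5, day 7 and day 14 have 1 array each, so the counts at these stages rest on single arrays. Fbp1 went on from 11.87 at E17.5 to 13.13 at E18.5 and Cps1 from 11.38 to 12.67. Cebpa went from 9.46 at E17.5 to 10.23 at E18.5 and stood at 8.04 at the day of birth. Of the 16 genes that fell, 7 were highest at E15.5 (43.8%, beside 4.58% of all genes), 5 at E11.5 (31.2% beside 21%) and 3 at E12.5 (18.8% beside 7.67%). The stage of the highest level partly follows from the call, which used E15.5 to E17.5. Mgst3, a microsomal glutathione transferase, read 11.38, 11.25, 11.41 and 11.12 before and 10.25 and 9.96 at E17.5, fell by 1.19 ± 0.17, and stood at 6.94 in the adult. Pdia2, a protein disulfide isomerase, fell by 1.24 ± 0.17 and Tex9 by 1.20 ± 0.19. With an offset of 50 added to intensities Pdia2 gave -0.95 and Tex9 -0.88, neither called. With all probe sets averaged Tex9 gave -0.31 and Mgst3 -0.83, neither called, and without replicate 2 of E17.5 Tex9 gave -0.996, just under the limit.

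No list held 97 of the genes that rose and 8 of those that fell, and the examples here were picked after their values were seen. Rbp2, a cellular retinol-binding protein best known from the intestine, read 6.22 and 6.26, 7.02 and 6.98, and 9.29 and 9.08 (2.56 ± 0.09, adjusted p = 7.70e-10). Unlike most risen genes it was at its highest of the 14 stages here, with 8.39 at E18.5 and 6.02 in the adult. Akr1c14, a hydroxysteroid dehydrogenase, rose by 2.48 ± 0.14, Hao1, the glycolate oxidase of peroxisomes, by 2.11 ± 0.23, and Tff3, a trefoil peptide, by 2.10 ± 0.15. A2m, a plasma protease inhibitor, rose by 1.97 ± 0.17 to 11.69 and stood at 6.22 in the adult. The remaining falls were in Rif1, a replication-timing and repair factor (-1.10 ± 0.17), Cited1, a transcriptional co-regulator (-1.01 ± 0.15), and Cenpk, a kinetochore subunit (-1.01 ± 0.18). All 3 stood close to the limit and were not called with an offset of 50 added to intensities (-0.82, -0.59 and -0.90).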

How the data were processed

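The deposited table holds 25 arrays and 45101 probe sets; the values are intensities on a linear scale, made by the authors with RMA per the submitters' processing notes, and the RMA version is not given in the sources used here. Tests had been planned on log2 values, so the log2 of the deposited intensities was taken, with no pseudocount. Probe sets with 1 symbol (34945 without controls) were kept, 932 with several were not, and the set with the highest mean over stages stood for a gene, which gave 18193 genes. Entrez identifiers had a RefSeq match (GRCm38.p6) for all but 204 sets.

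Means of the 14 stages were fitted to all 25 arrays with limma 3.58.1 (lmFit, eBayes) in R 4.3.3. Members, lists and tests were chosen with earlier results of these data known. Of 1112 entries on 35 lists 1004 were measured. Named genes are the 8 largest rises and falls with arrays outside the others, up to 5 called and 3 bright uncalled members of each list, and 14 in any case; others are said to be picked later. Same-numbered arrays deviated together (r 0.507 to 0.560 between the 3 stages), so the repeat numbers were taken as pairs on that basis and a fit with the repeat number as a replicate block was run; over 11 stages r was -0.573 to 0.730. On simulated data of 18193 genes with 200 changed, hits were taken at an adjusted p under 0.05 alone. The fit recovered 94% at 2-fold and 100% at 4-fold, with a false share of 4.9%. The limit of 1 log2 unit was not applied there and noise was independent between arrays. These shares therefore need not hold for the calls. Alternatives covered scaling, offset, probe sets, dim genes, variance, pools, single arrays and the threshold. The number of arrays limits the precision.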

Additional observations from a re-analysis of the deposited data

Results flagged for a closer look

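The genes named above that were called between the earlier stages themselves, and so differed from E15.5 and from E16.5 by unlike amounts, are given here by E16.5 minus E15.5 (limma, adjusted p under 0.05 and at least 1 log2 unit). E16.5 exceeded E15.5 by 2.17 for Fbp1, 1.52 for Adh1, 1.33 for Hsd11b1, 1.27 for Hamp, 1.14 for Arg1 and 1.01 for Ces1c, all hepatocyte genes, and by 1.21 for Akr1c14 and 1.06 for A2m. Among granulocyte genes the difference was 1.60 for Chil3, 1.54 for Ltf, 1.50 for Lcn2, 1.26 for Olfm4 and 1.09 for Pglyrp1, and for Rsad2 of the interferon list it was 1.88. For the embryonic globins it was -1.40 for Hbb-y and -1.22 for Hba-x. Prl8a2 gave -3.58 and Prg2 gave 2.14. The sex marks gave -3.31 for Xist and 3.78 for Eif2s3y. No stage has 4 arrays, so single arrays could not be tested as outliers.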

How the results depend on the processing

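The counts of genes called for E17.5 against the mean of the earlier stages, against E15.5, against E16.5, and for E16.5 against E15.5 were 209, 319, 136 and 43. With an offset of 50 added to intensities they were 132 (127 higher, 5 lower), 202, 86 and 27, with 131 of the 132 alike in direction. Quantile normalisation gave 69 for E16.5 against E15.5. The mean of all probe sets gave 9 lower genes. At the adjusted p alone the counts were 1038 (759 and 279), 1173, 431 and 102, with 1035 alike in direction, and 73.1% were higher in place of 92.3%. With pools as samples 0 genes were called, 0 higher and 0 lower, 0 alike in direction. Leaving out each array in turn gave 157 to 254 genes (133 to 245 higher, 9 to 24 lower), 250 to 325 against E15.5, 53 to 125 against E16.5, 18 to 42 between E15.5 and E16.5, and 156 to 253 alike in direction. The replicate block gave 210, 320, 146 and 50 and kept all 209 calls; so did 2 block fits on fewer stages, chosen after seeing the data. Dpys reversed to -0.069 without sets shared by transcripts (adjusted p = 0.909), where another set stands for it. Of 87 named called genes, 21 were lost with the offset, 18 with averaged probe sets and 1 to 9 without a single array; causes were not tested. Other scalings moved the median of all genes by at most 0.0145. With 1 pool per stage, no spread between livers can be had, and dim genes have compressed differences.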
